A study of Mus musculus with 2 samples.

Results

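The creatine genes of pancreatic islets are described here in 2 strains of mice. They are 7 genes: the creatine kinases Ckb, Ckm, Ckmt1 and Ckmt2, the synthesis enzymes Gatm and Gamt, and the creatine transporter Slc6a8. They were found by summing the deposited transcript values per Ensembl gene ID and matching the IDs to mouse symbols, and all 7 were found among 38924 genes. The genes were chosen by their known role, but with the counts and TPM of these same libraries already seen, so their levels and ratios are a description and carry no test.

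RNA was sequenced from islets of male C57BL/6J mice (B6), the strain of the mouse reference genome, and of male CAST/EiJ mice (CAST), an inbred strain derived from wild mice. All mice were 10 weeks old, ate standard chow and received no treatment that the labels name. Each strain gave a pool of islets from 2 mice, RNA came from 250 islets of that pool, and purification was in buffer with 16.7 mM glucose. There was 1 library per strain, with 76600903 counts in B6 and 104324631 in CAST, so no error between mice can be estimated and each ratio compares these 2 libraries only. The interval given with a value is its exact 95% counting interval, and reads are not independent molecules, so it covers counting error only.

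Creatine kinases move a phosphate group between ATP and creatine, so that phosphocreatine can hold and carry energy in cells whose ATP use changes quickly. Ckb and Ckm encode the brain-type and muscle-type enzymes of the cytosol. Ckmt1 and Ckmt2 encode the ubiquitous and the sarcomeric enzyme of the space between the mitochondrial membranes, where ATP leaves the matrix. Creatine itself is made in 2 steps. Gatm, a mitochondrial amidinotransferase, joins arginine and glycine to guanidinoacetate, and Gamt, a cytosolic methyltransferase, adds a methyl group from S-adenosylmethionine. Slc6a8 brings finished creatine into the cell with sodium and chloride. The pancreas is among the tissues known for Gatm expression, and islet beta cells use ATP both as fuel and as the signal that closes their potassium channels.

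The stretch of 250 bases before the RefSeq start (GRCm38.p6) is shown for the genes on which the results turn: Ckb, the gene with the largest ratio, Ckm, the other cytosolic kinase, which was near 0, both annotated starts of Ckmt1, of which the downstream one carried nearly all reads, and Gatm and Gamt, whose ratios had opposite signs. The sequences run 5′ to 3′ on the strand of the gene, and capitals mark the letters of a TATA box (TATAA), of a CCAAT box (CCAAT) and of a GC box (GGGCGG) on either strand.
Ckb, chr12:111672339-111672588, minus strand: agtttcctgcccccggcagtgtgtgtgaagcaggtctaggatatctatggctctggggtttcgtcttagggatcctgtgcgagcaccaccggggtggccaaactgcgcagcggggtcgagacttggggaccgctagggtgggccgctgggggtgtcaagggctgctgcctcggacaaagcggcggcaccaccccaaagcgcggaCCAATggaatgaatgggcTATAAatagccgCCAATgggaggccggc
Ckm, chr7:19410844-19411093, plus strand: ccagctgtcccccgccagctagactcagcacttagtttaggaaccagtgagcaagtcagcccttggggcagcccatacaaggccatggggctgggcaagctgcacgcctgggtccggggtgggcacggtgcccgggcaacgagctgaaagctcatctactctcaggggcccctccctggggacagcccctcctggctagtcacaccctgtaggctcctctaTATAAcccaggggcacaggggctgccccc
Ckmt1, upstream start, chr2:121357526-121357775, plus strand: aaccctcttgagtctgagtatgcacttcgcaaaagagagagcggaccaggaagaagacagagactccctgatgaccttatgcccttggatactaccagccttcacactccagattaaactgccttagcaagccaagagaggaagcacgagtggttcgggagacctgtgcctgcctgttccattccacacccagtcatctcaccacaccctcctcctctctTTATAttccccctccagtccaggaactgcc
Ckmt1, downstream start, chr2:121358360-121358609, plus strand: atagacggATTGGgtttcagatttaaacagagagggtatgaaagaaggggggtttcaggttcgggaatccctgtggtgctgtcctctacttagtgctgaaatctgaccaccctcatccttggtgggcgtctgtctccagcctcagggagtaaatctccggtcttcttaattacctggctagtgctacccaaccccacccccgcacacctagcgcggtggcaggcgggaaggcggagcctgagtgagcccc
Gatm, chr2:122611278-122611527, minus strand: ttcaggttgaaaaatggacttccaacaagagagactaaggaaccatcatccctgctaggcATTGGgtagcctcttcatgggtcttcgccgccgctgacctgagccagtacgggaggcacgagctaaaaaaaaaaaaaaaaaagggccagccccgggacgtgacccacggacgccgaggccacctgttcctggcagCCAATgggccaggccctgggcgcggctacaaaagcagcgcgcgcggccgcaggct
Gamt, chr10:80261013-80261262, minus strand: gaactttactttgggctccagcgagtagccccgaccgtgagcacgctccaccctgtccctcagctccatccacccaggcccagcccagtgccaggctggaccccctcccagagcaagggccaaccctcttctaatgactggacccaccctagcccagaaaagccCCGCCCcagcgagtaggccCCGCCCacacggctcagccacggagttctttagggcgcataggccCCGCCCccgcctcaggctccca

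Both cytosolic kinase genes had TATAA close to the start, from base 28 to 24 before it in Ckb and from base 29 to 25 in Ckm. In Ckb it lay between CCAAT at bases 46 to 42 and CCAAT at bases 16 to 12. The upstream Ckmt1 window had TATAA on the other strand only, and the downstream window held CCAAT alone, on the other strand 242 to 238 bases before the start. Gatm had CCAAT at bases 55 to 51 and again, on the other strand, at 190 to 186, and Gamt had the GC box GGGCGG 3 times, each on the other strand. Of 32851 such windows of all genes, 22.8% held TATAA, 33.8% CCAAT and 32.7% GGGCGG on either strand. The windows of Ckb, Ckm, Gatm and Gamt had a GC content of 62.8%, 64.8%, 59.2% and 66.8%, and those of Ckmt1 52.8% upstream and 56.0% downstream, against a median of 52.4% over all windows. A match of letters is a description and shows no binding of a factor.

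Ckb was the creatine gene that set the libraries furthest apart. Ckb (ENSMUSG00000001270, chromosome 12, 111669361 to 111672338, minus strand, GRCm38) had 2808 counts in B6 and 28756 in CAST. Its level per length was 31.0 TPM in B6 (29.9 to 32.2) and 204 TPM in CAST (202 to 207), where TPM counts transcript molecules per 1000000. By TPM it ranked 2696 of all genes in B6 and 251 in CAST. On counts scaled with TMM factors, which adjust for library size and composition, it was 8.38-fold higher in CAST (8.06 to 8.72), a log2 ratio of CAST over B6 of 3.07. In these bulk samples, more cells of a type and more RNA per cell cannot be told apart.

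The Ckb ratio lay far out in the range of all genes. Genes with at least 100 counts in the libraries together numbered 14768, of which 337 (2.28%) had a higher ratio, and the median log2 ratio of all of them was 0.02. All Ckb reads were assigned to a single transcript of 8 exons, Ckb-201. Gm12892, annotated elsewhere, matches this transcript with 96.7% identity over 1143 bases, so reads may be divided between both. It had 1 count in B6 and 129 in CAST, and Ckb with this copy added stayed 8.41-fold higher in CAST (log2 3.07). The genes on either side of Ckb had other ratios: Mark3, 13140 bases away, was at log2 0.08 and Trmt61a, 5767 bases away, at 0.40.

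Ckm, the muscle-type kinase gene (chromosome 7, 19404776 to 19422841), was at the edge of detection. It had 2 counts in B6 (0.242 to 7.22) and 3 in CAST (0.619 to 8.77), at or under the floor of 3 counts per library, so no ratio is given. A930016O22Rik, a gene on the opposite strand that overlaps it, had 29 and 54 counts. With no strand setting stated, reads of both cannot be told apart. Markers of striated muscle were low as well: their 18 genes summed to 7.20 TPM in B6 and 5.01 TPM in CAST. Several had reads: Des had 276 counts in B6 and 393 in CAST, Acta1 73 and 122, and Mylpf 87 and 74. Only Myh1, Myh4 and Tnnt3, muscle myosin and troponin genes named after their values were seen, had 0 counts in both libraries.

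Ckmt1, the ubiquitous mitochondrial kinase gene (chromosome 2, 121357714 to 121363737), was measured at nearly the same level per length in both libraries. It had 1307 counts in B6 and 2089 in CAST, which is 13.3 TPM (12.6 to 14.1) and 13.5 TPM (13.0 to 14.1). On scaled counts it was 1.31-fold higher in CAST (1.22 to 1.40, log2 0.39). Compared as TPM with a pseudocount of 1, the log2 ratio was 0.020, and on that scale all genes had a median of -0.26. Ckmt1 overlaps Strc on the opposite strand, which had 23 counts in B6 and 0 in CAST.

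Ckmt2, the sarcomeric mitochondrial kinase gene (chromosome 13, 91853387 to 91876885), was not detected. It had 0 counts in both libraries. The floor of 3 counts, a one-sided 95% limit, is 0.0392 per 1000000 total counts in B6 and 0.0288 in CAST, and the two-sided interval used for the other genes reaches 3.69 counts. Of the 4 kinase genes the islets thus measured mainly the pair of Ckb and Ckmt1. Ckb held 69.9% of the TPM of the 4 genes in B6 and 93.8% in CAST, and Ckmt1 30.1% and 6.21%. Their summed level was 44.4 TPM in B6 and 218 TPM in CAST, and Ckb exceeded Ckmt1 2.32 times in B6 and 15.1 times in CAST.

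**Figure D1:**
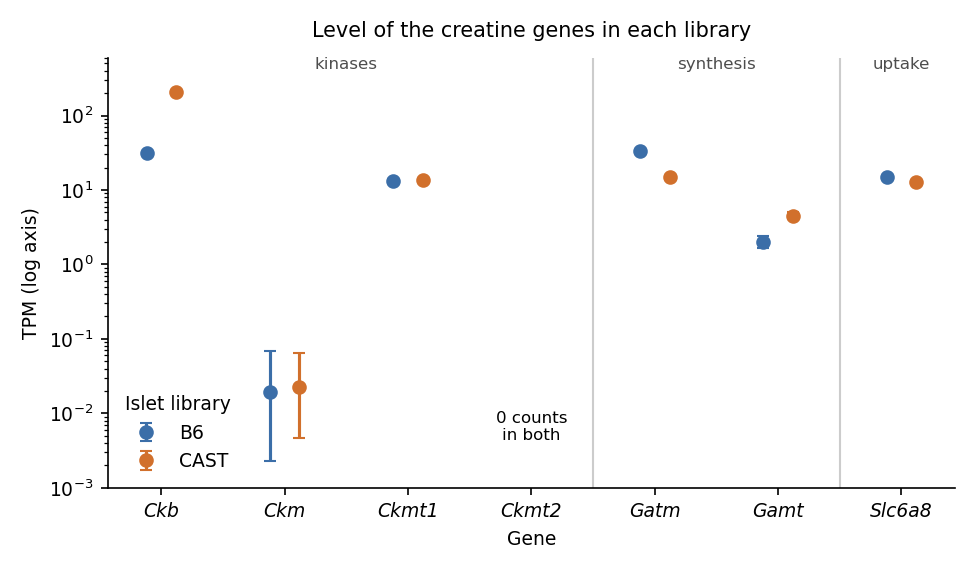
Level of each creatine gene in TPM (log axis) in the B6 library (blue) and the CAST library (orange), with exact 95% counting intervals, which are smaller than the points for well-counted genes; Ckmt2 had 0 counts in both. Ckb goes from 31.0 TPM in B6 to 204 TPM in CAST, Gatm from 33.5 to 15.1 TPM, and Ckmt1 and Slc6a8 stay between 12.9 and 14.8 TPM.

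The synthesis enzymes differed in opposite directions. Gatm, the amidinotransferase of the first step (ENSMUSG00000027199, chromosome 2, 122594467 to 122611303, minus strand), had 4672 counts in B6 and 3445 in CAST although the CAST library was deeper. That is 33.5 TPM in B6 (32.5 to 34.5) and 15.1 TPM in CAST (14.6 to 15.6). On scaled counts Gatm was 1.66-fold higher in B6 (1.59 to 1.73, log2 ratio of CAST over B6 -0.73), and 1431 of 14768 genes (9.69%) had a lower ratio. As a ratio of TPM it was 2.22-fold higher in B6 (log2 -1.15), on a scale where the median of all genes was -0.33. Measured from the median of all genes, Gatm was at -0.82 on that scale and at -0.75 on scaled counts.

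Gamt, the methyltransferase of the second step (ENSMUSG00000020150, chromosome 10, 80258151 to 80261012, minus strand), was the lowest of the creatine genes above the count minimum. It had 117 counts in B6 (96.8 to 140.2) and 414 in CAST (375.1 to 456), which is 1.99 TPM (1.65 to 2.39) and 4.53 TPM (4.11 to 4.99). On scaled counts it was 2.89-fold higher in CAST (2.35 to 3.59, log2 1.53), and 691 genes (4.68%) had a higher ratio. As a ratio of TPM it was 2.28-fold, but log2 0.89, under 2-fold, once the pseudocount of 1 was added. The medians of all genes on these 2 scales were -0.33 and -0.26. The level of Gatm was 16.8 times that of Gamt in B6 and 3.33 times in CAST.

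Slc6a8, the creatine transporter gene (ENSMUSG00000019558, chromosome X, 73673150 to 73682502, plus strand), differed little, and the sign of its difference depended on the scale. It had 2361 counts in B6 and 3575 in CAST, which is 14.8 TPM (14.2 to 15.4) and 12.9 TPM (12.4 to 13.3). On scaled counts it was 1.24-fold higher in CAST (1.18 to 1.31, log2 0.31). By TPM with a pseudocount of 1 it was at log2 -0.19, which is still 0.08 above the median of all genes on that scale. The carrier gene Slc16a12, whose product also moves creatine across membranes, had 34.2 TPM in B6 and 28.7 TPM in CAST, above Slc6a8 in both libraries, with a log2 ratio of 0.10.

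**Figure D2:**
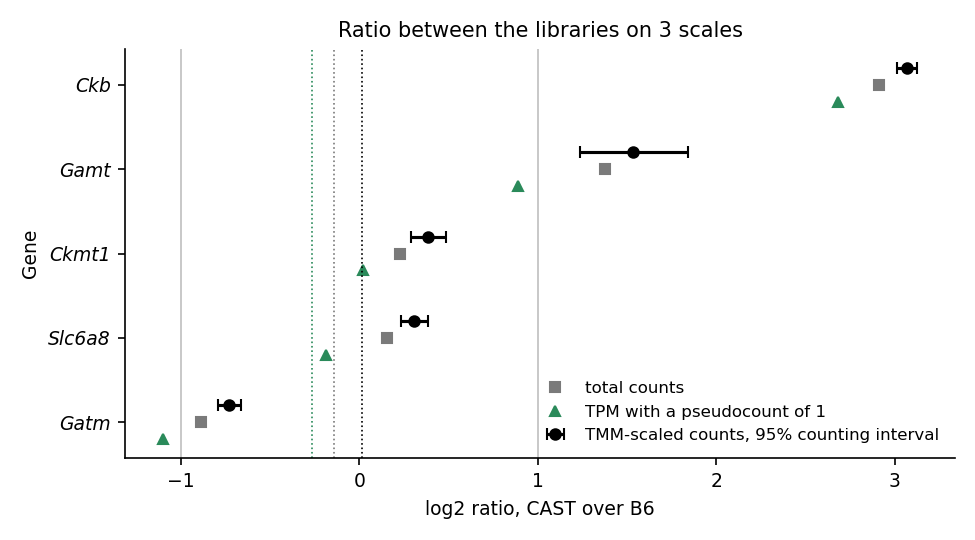
Log2 ratio of CAST over B6 of the 5 creatine genes with 100 or more counts, from TMM-scaled counts (black, with 95% counting intervals), total counts (grey) and TPM with a pseudocount of 1 (green); dotted lines are the medians of all genes on each scale and solid grey lines mark 2-fold. Ckb lies between 2.68 and 3.07 on these scales, Gatm between -1.10 and -0.73, and Slc6a8 changes side, from 0.31 to -0.19.

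As a group, 5 of the 7 genes reached 100 counts over both libraries, and Ckm and Ckmt2 did not. Of these 5, Ckb and Gamt were at least 2-fold higher in CAST, where 7.18% of all genes compared were, and no member reached 2-fold in the direction of B6, where 5.99% of genes did. By TPM with a pseudocount of 1, Ckb alone was past 2-fold in the direction of CAST (3.14% of all genes were) and Gatm in that of B6 (4.99% were). With no pseudocount they were Ckb and Gamt (5.34%) and Gatm (11.3%). These calls used the same contrast through which the genes had been picked, so nothing is read from the counts. The median log2 ratio of the 5 was 0.39, beside 0.02 over all genes. In B6 the order by TPM was Gatm, Ckb, Slc6a8, Ckmt1 and Gamt, with Gatm and Ckb separated by little more than their counting intervals, as were Slc6a8 and Ckmt1. In CAST it was Ckb, Gatm, Ckmt1, Slc6a8 and Gamt, and the intervals of Ckmt1 and Slc6a8 overlapped.

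**Figure D3:**
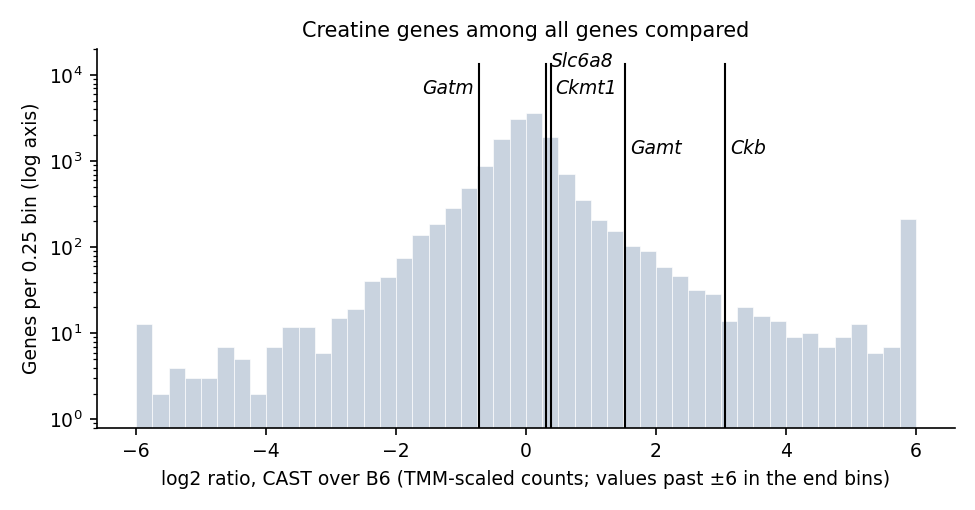
Distribution of the log2 ratio of CAST over B6 on TMM-scaled counts over 14768 genes with 100 or more counts (bars, number of genes per bin on a log axis), with the 5 creatine genes as lines. Ckb at 3.07 and Gamt at 1.53 lie in the right tail, Slc6a8 at 0.31 and Ckmt1 at 0.39 near the centre, and Gatm at -0.73 on the left.

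Within the genes, the files divide reads among annotated transcripts, and the sources used here give no uncertainty of that division. Gatm had 3 transcripts. The coding Gatm-201, with 9 exons, made up 90.6% of Gatm TPM in B6 and 97.5% in CAST. The retained-intron transcript Gatm-202 had 125 and 19.0 counts, or 8.06% and 1.74% of Gatm TPM. The coding transcript alone was 30.3 TPM in B6 and 14.7 TPM in CAST, so it followed the whole gene.

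Ckmt1 and Gamt each rested on a single coding transcript in both libraries. Of 10 annotated Ckmt1 transcripts, Ckmt1-201, which begins at the downstream start shown above, made up 95.9% of Ckmt1 TPM in B6 and 99.2% in CAST. Ckmt1-202, from the upstream start, had 14.7 counts in B6 and 0 in CAST. Gamt-202 held 95.6% and 95.2% of the TPM of Gamt.

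Slc6a8 was the most divided. Of its 13 transcripts 10 had reads in either library, and the coding transcripts together made up 58.0% of Slc6a8 TPM in B6 and 73.2% in CAST. Slc6a8-203 was the main one, with 1386 counts in B6 and 2187 in CAST (44.8% and 52.3% of the TPM). Slc6a8-201, which starts further upstream, had 474 and 926 counts (12.8% and 18.5%). Transcripts with a retained intron held 37.1% in B6 and 26.8% in CAST, and Slc6a8-202, annotated as a target of nonsense-mediated decay, had 125 counts in B6 and 0 in CAST. The summed level of the coding transcripts was 8.57 TPM in B6 and 9.40 TPM in CAST, whereas the whole gene was higher in B6 by TPM.

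**Figure D4:**
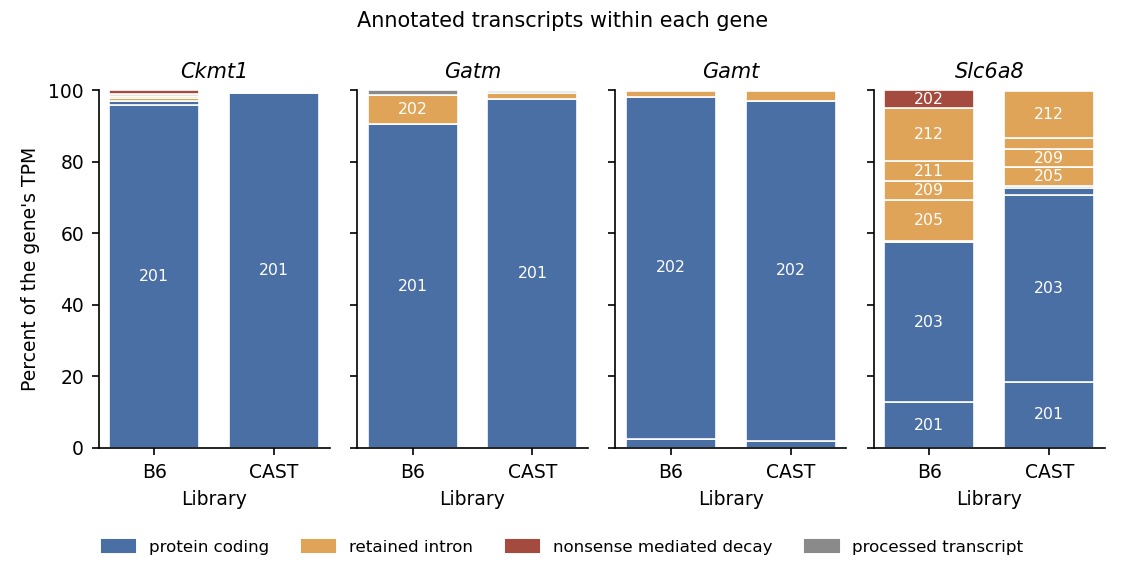
Share of each gene's TPM held by its annotated transcripts in the B6 and CAST libraries, coloured by transcript type and numbered where a share is 4% or more. Coding transcripts fill most of Ckmt1, Gatm and Gamt in both libraries, and in Slc6a8 they hold 58.0% in B6 and 73.2% in CAST.

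Markers of the cell types that an islet preparation holds were set beside these values. Ins2, an insulin gene, was at 404421 TPM in B6 and 477729 TPM in CAST, and of the 12 beta cell genes none was 2-fold apart (7.18% of all genes were toward CAST and 5.99% toward B6), with a median log2 ratio of 0.04. Digestive enzyme and other acinar cell genes were higher in CAST, with a median of 1.91, and summed to 7273 TPM in B6 and 22749 TPM in CAST. Of these, 22 of 22 had a ratio above 0 (51.7% of all genes did) and 18 were at least 2-fold higher (7.18% were). The other 4, named after their values were seen, were the transcription factor genes Bhlha15, Rbpjl, Nr5a2 and Ptf1a, at log2 0.17, 0.36, 0.40 and 0.43, and Bhlha15 was at -0.17 by TPM with a pseudocount of 1. On scaled counts Ckb, Gamt, Ckmt1 and Slc6a8 had a ratio above 0 like this list, as did 51.7% of all genes, and Gatm had one below 0. With acinar and hormone genes left out of the library totals, the log2 ratios were 3.01 for Ckb, 1.48 for Gamt and -0.78 for Gatm. This changes only the totals, so the ratios of all genes shift nearly alike, by -0.05 at the median. It cannot show which cells the reads came from.

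Glial and neuronal markers, set here because Ckb is known as the brain-type enzyme, summed to 174 TPM in B6 and 318 TPM in CAST and had a median of 0.55 on the log2 scale. Th, which encodes tyrosine hydroxylase, stood highest among them at log2 2.24 (5304 and 30691 counts), and S100b, a glial gene named after its values were seen, was at 1.67 with 38 and 149 counts. Sox10, a defining glial gene, was at 0.399 TPM in B6 and 0.511 TPM in CAST. Stellate cell and fibroblast markers summed to 63.0 TPM and 78.6 TPM, with 5 of 9 at least 2-fold higher in CAST (7.18% of all genes were). Duct markers lay far apart, with sums of 154 and 111 TPM and a median of 0.48: of 7 compared, 3 were at least 2-fold higher in CAST (7.18% of all genes were) and 1 in B6 (5.99% were), from Krt19, a duct keratin gene, at 3.52 to Ambp at -1.10. Medians and sums were, for smooth muscle markers, 0.38 with 14.7 and 15.9 TPM, for endothelial markers, 0.31 with 243 and 220 TPM, and for leukocyte markers, 0.23 with 173 and 156 TPM. Alpha cell and delta and PP cell markers were lower in CAST, with medians of -0.55 and -0.52 and sums of 65950 and 39358 TPM, and 15660 and 11518 TPM. No gene of the acinar, glial and neuronal or fibroblast lists had 0 counts in either library. The part of any of these cell types in the Ckb, Gamt and Gatm ratios was not tested.

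Genes with nearly the same levels as Ckb and Gatm were sought over the 2 libraries, by distance in log2(TPM + 1) among 13220 genes. Nearest to Ckb were Nnat (35.4 TPM in B6 and 194 TPM in CAST), Pla2g1b (26.2 and 146 TPM) and Th (47.0 and 175 TPM), at distances of 0.20, 0.54 and 0.62. Nearest to Gatm were Socs2 (33.8 and 14.8 TPM), Prrt1 (32.8 and 15.3 TPM) and Snhg20 (34.7 and 15.1 TPM), at distances of 0.03, 0.03 and 0.05. Likeness over 2 points says nothing of shared function or control.

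Other genes that carry phosphate between ATP stores differed less than Ckb. Adenylate and nucleoside diphosphate kinases, which pass phosphate among nucleotides, had 13 members compared and a median log2 ratio of 0.23. Of the 13, 0 were at least 2-fold higher in CAST (7.18% of all genes were) and 2 in B6 (5.99% were). The 2 were Ak5, at 337 and 155 counts (log2 -1.41), and Ak7, at 78 and 35 (-1.43). At the upper end were Ak6 (0.97) and Nme4 (0.76). Nme2, the most abundant, was at 139 and 146 TPM and log2 0.41. Ak1, the main cytosolic adenylate kinase, had 20.0 TPM in B6 and 16.8 TPM in CAST, a level below that of Ckb in both.

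Genes for the exchange of nucleotides and phosphate across the mitochondrial membranes, the partners between which Ckmt1 works, had 9 members compared, of which 0 were at least 2-fold higher in CAST (7.18% of all genes were) and 1 was in B6 (5.99% were), with a median of 0.17. Slc25a5 and Slc25a4, ATP/ADP carriers, were at log2 0.52 and 0.17, and Vdac1, an outer membrane channel, at 0.24. Slc25a24, an ATP-Mg and phosphate carrier, was 2.31-fold higher in B6, with 638 and 337 counts. The most abundant was the phosphate carrier Slc25a3, at 223 TPM in B6 and 173 TPM in CAST (log2 -0.08), and Slc25a25 was at 0.46. Of 11 ion pump genes, whose products use ATP, none was 2-fold apart, where 7.18% and 5.99% of all genes were, and the median was 0.07. The plasma membrane calcium pump gene Atp2b4 was at log2 -0.44, and Atp2a2, the endoplasmic reticulum calcium pump and most abundant of them, was at -0.27.

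Genes of the metabolism and transport of arginine, glycine and ornithine, the substrates and by-product of Gatm, had 16 members compared and a median of 0.22. Of the 16, 2 were at least 2-fold higher in CAST (7.18% of all genes were) and 0 in B6 (5.99% were). Arg2, the mitochondrial arginase, went from 8 counts in B6 to 111 in CAST (log2 3.43, interval 2.48 to 4.75), and Shmt1, a cytosolic serine hydroxymethyltransferase that makes glycine, 79 and 256 (1.40). At the lower end, on the side of Gatm, were Arg1, the cytosolic arginase, at log2 -0.93 (27.6 and 11.4 TPM), and Slc7a1, an arginine transporter, at -0.64. Slc7a2, another arginine transporter and the most abundant, was at 104 TPM in B6 and 71.1 TPM in CAST (log2 -0.26).

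Genes of methyl group supply, which Gamt draws on, lay on both sides of 0. Of 14 compared, 3 were at least 2-fold higher in CAST (7.18% of all genes were), 1 was so in B6 (5.99% were), and the median was 0.05. Gnmt, which methylates glycine and so competes for the same methyl donor, went from 126 counts in B6 to 637 in CAST (log2 2.04, interval 1.77 to 2.34). Cbs and Cth, which take homocysteine on to cysteine, were at log2 1.77 (3494 and 14542 counts; Cbs was named after its values were seen) and 1.98 (34 and 166 counts). Ahcy, which clears the S-adenosylhomocysteine that Gamt leaves behind, had 4710 and 1086 counts (log2 -2.41). Its near-identical copy Gm4737 (99.7% identity) had 0 and 3300 counts, and Ahcy with its copies added was at -0.39, within 2-fold. Mat2a and Mat1a, which make the methyl donor, were at 0.27 and -0.07, and Ahcyl1, the most abundant, was at -0.01.

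**Figure D5:**
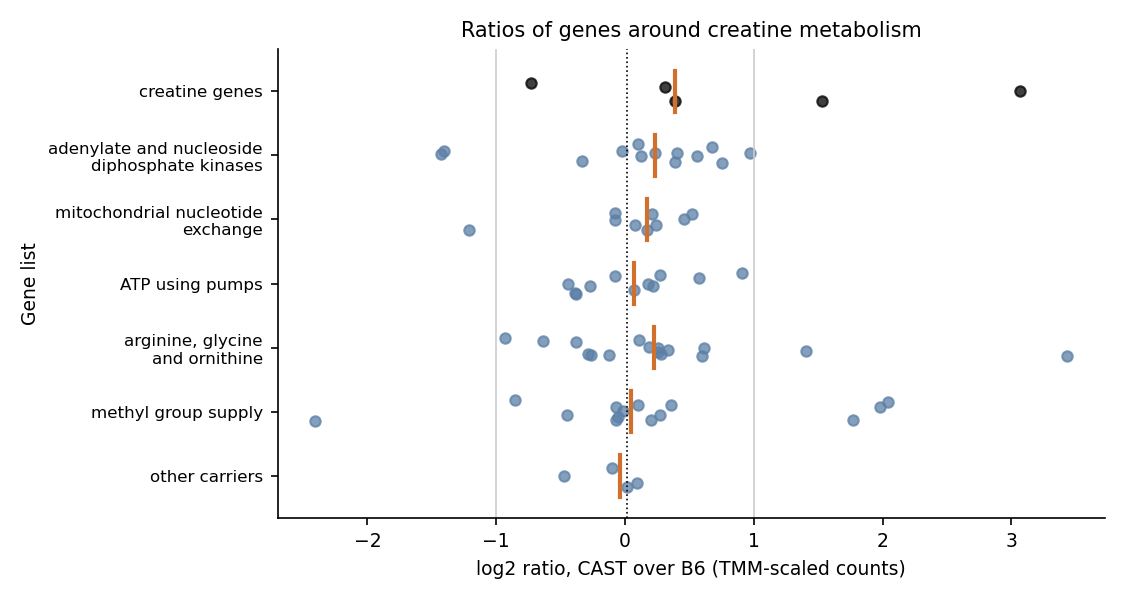
Log2 ratio of CAST over B6 on TMM-scaled counts for the 5 creatine genes (black) and the genes of 6 lists around them (blue), each gene with 100 or more counts; orange bars are medians, grey lines mark 2-fold and the dotted line is the median of all genes. Ckb at 3.07 lies to the right of every point but Arg2 at 3.43, and the point of Ahcy at -2.41 moves to -0.39 when its copies are added.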

How the data were processed

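The creatine genes, the gene lists and the comparisons were chosen with earlier results of these data known. The authors' deposited files hold, per Ensembl transcript, an expected count from RSEM on GRCm38, made by the authors per the submitters' processing notes. They also hold a deposited fraction that sums to 1 over each file; times 1000000 it is TPM. This reading rests on the ratio of count to fraction, which tracked the length of transcripts (rank correlation 0.971 in each library). Not given in the sources used here are the aligner, versions, annotation release, library kit and strand setting. Both strains were quantified on the reference build, and how far CAST variants lower its counts was not tested.

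Sums of expected counts per gene were rounded. Of 38924 gene IDs 37607 matched GENCODE M21 (GRCm38). TMM factors were 1.056 for B6 and 0.947 for CAST (edgeR 4.0.16). The log2 ratio is that of scaled counts with 0.5 added, where a gene had at least 100 counts in all. Its 95% interval (exact, Clopper-Pearson) comes from the share of CAST among those counts; intervals of counts and TPM are exact Poisson. With 1 library per strain no test was run. The computation was tested on simulated data. Near-identical copies were transcripts of 95% identity along 200 bases or more that cover 50% of the shorter one (minimap2 2.31). Named are all creatine genes, the 2 highest and 2 lowest ratios and the most abundant gene of each list around them, the most abundant and extreme marker genes, and the nearest genes in level, except a few that are not reported here; others are said to be named after their values were seen, or are neighbours, copies and known partners of these. Alternatives were DESeq2 1.42.0 size factors, total counts with and without acinar and hormone genes, TPM, other constants and count minimums, thinning, added copies and the main transcript alone; the ratio of TPM with no constant was added after seeing the data. Promoter windows are from RefSeq, which held 6 of the 7 genes. Python 3.11.15 and R 4.3.3 were used.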

Additional observations from a re-analysis of the deposited data

How the results depend on the processing

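Of 122 recomputed values 89 stayed within their counting interval, or within 1.5 times for counts of genes. That was so for all values with DESeq2 size factors, with acinar and hormone genes left out of the totals, with a constant of 5, with CAST thinned to the B6 total, with the copies of creatine genes added, with the most counted transcript only and with other count minimums. The 89 include numbers of genes that were 0 and stayed 0. DESeq2 size factors shifted the median of all genes by 0.003, so they could hardly move a value. The tally is thus no measure of how stable the results are. Among genes of the lists, copies moved Ahcy from -2.41 to -0.39, which left the methyl list no gene 2-fold higher in B6 (5.99% of all genes were, with no copies added). The match of Nme3 was Mrps34, a separately named gene that shares 692 bases with it and had 2216 and 2760 counts. Adding Mrps34 moved Nme3 from 0.67 to 0.28, a sum that mixes 2 genes and does not correct Nme3. Nme2 went from 0.41 to 0.47, mostly with Gm20390 (2932 and 5509 counts), which shares 574 bases with it. With total counts the log2 ratios were 2.91 for Ckb, 0.23 for Ckmt1, -0.89 for Gatm and 0.15 for Slc6a8, with a median of 0.23, where all genes were at -0.14. By TPM with a pseudocount of 1 they were 2.68 for Ckb, 0.020 for Ckmt1, -1.10 for Gatm, 0.89 for Gamt and -0.19 for Slc6a8, with a median of 0.020, where all genes were at -0.26. By TPM with no constant they were 2.72, 0.021, -1.15, 1.19 and -0.20 in the same order, with a median of 0.021, where all genes were at -0.33. Slc6a8 thus changed sign by TPM. The number of creatine genes at least 2-fold higher in CAST was 1 by TPM with a pseudocount of 1, Ckb, and by both TPM settings 1, Gatm, was at least 2-fold higher in B6. By TPM with a pseudocount of 1 the adenylate and nucleoside diphosphate kinases and the nucleotide exchange genes had 0 genes 2-fold toward B6 (4.99% of all genes were). The arginine list had 0 toward CAST on that scale (3.14% were). With total counts and by that TPM setting, 1 gene of the arginine list and 2 of the methyl list were at least 2-fold higher in B6. As shares of counts in place of TPM, Ckmt1-201 held 97.6% in B6 and 99.7% in CAST, Gatm-201 97.0% and 99.3%, and Slc6a8-203 58.7% and 61.2%. The cause of these shifts was not tested. No paired analysis was possible because each strain has 1 library. Gamt, at 117 counts in B6, has the widest ratio interval of the 5 creatine genes compared, and the depth does not show whether Ckm or Ckmt2 differ.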

Other observations

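The nearest compared genes beside Gatm on the side of lower coordinates were lower in CAST by more than Gatm itself. Gm14085, 66427 bases away, went from 323 counts in B6 to 28 in CAST, and the pseudogene Bambi-ps1, 126941 bases away, from 398 to 18. On the other side Spata5l1, 19322 bases away, had 400 and 501 counts. Ckmt1 lies on the same chromosome, and 1230730 bases separate its end from Gatm. The neighbours of Gamt, Ndufs7 and Dazap1, 1357 and 474 bases away, were at log2 0.16 and -0.06, and those of Slc6a8, Pnck and Bcap31, at 0.03 and 0.16. All of these genes were named after their values were seen. Over the 7 creatine genes the summed level was 94.6 TPM in B6 and 250.5 TPM in CAST, of which Ckb alone was 31.0 and 204 TPM.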
